A study of Mus musculus with 4 samples.

Results

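The 7 genes described here were the endothelin ligands Edn1, Edn2 and Edn3, the endothelin receptors Ednra and Ednrb, and the related orphan receptors Gpr37 and Gpr37l1. They were chosen by gene symbol, out of 15694 symbols on the array, with earlier results of these arrays known, in which Gpr37 was among the probes with the largest difference between the lung line and the parental line. Each of the 7 genes had 1 probe among the 33012 probes of the Applied Biosystems mouse array.

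The array study compared 4 cultured mouse melanoma lines of C57Bl6 background, all derived from B16. B16 is the parental line and was not passaged through mice in this study. B16F1 cells were injected into the skin of C57BL6 mice, and the melanoma cells recovered from their lymph nodes became B16-RI. B16-RI was injected the same way in turn, and gave B16-R2 (also written B16-RII) from lymph nodes and B16-R2L (B16-RIIL) from the lung, so that these lines had passed through 2 rounds. All lines were grown in the same serum-containing medium, and the RNA of each line was a pool of cultures of 2 passage numbers. The passaged lines were isolated from metastases in mice, and the labels do not give the age of the animals or a selection against host cells.

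The values come from 4 arrays, 1 per line. The study made replicates and the deposited table holds a second array per line, but no labelled sample matches those columns and they were not used here, so no difference between lines was checked against replicates or tested. The unit is the normalized signal that the authors deposited, and a probe counted as detected where its signal-to-noise ratio, S/N, reached 3 and its error flag was 5000 or less. By this rule 42% to 45% of all probes were detected on an array. Over the probes detected on all 4 arrays, the median difference from B16 was 0.21 log2 units for B16-RI, 0.41 for B16-R2 and 0.22 for B16-R2L. The deposited values divide 2 sets of probes by different constants, and in the set that holds Gpr37, Ednra and Ednrb this median was 0.39, 0.41 and 0.46, against 0.07, 0.42 and -0.01 in the set of the ligands and Gpr37l1. The 6 melanocyte markers measured, among them Pmel, Dct and Tyrp1, were detected on all 4 arrays and 0 of them differed 2-fold from B16 in any passaged line.

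Endothelins are small secreted peptides that are cut from longer precursors and signal through the G protein-coupled receptors Ednra and Ednrb. Edn3 and Ednrb are needed for the precursors of melanocytes to spread and multiply in the embryo, and mice that lack either have white spotting of the coat, whereas Edn1 with Ednra is best known for vascular tone and for formation of the face. Gpr37 and Gpr37l1 resemble the endothelin receptors in sequence but do not bind endothelins. They are known mainly from glia of the brain, Gpr37 from oligodendrocytes and as a substrate of parkin, and Gpr37l1 from astrocytes.

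Only 3 of the 7 genes were detected on any array. Gpr37 was detected on the 3 passaged lines and not on B16, Ednra on B16 alone, and Edn2 on B16-R2L alone. Ednrb, Edn1, Edn3 and Gpr37l1 were not detected on any array, as were 43.4% of all probes. The pattern of Gpr37 was shared by 463 probes (1.4% of all probes), that of Ednra by 1096 (3.32%) and that of Edn2 by 1190 (3.6%). The bases before the start site of the genes whose values differed most between the lines, Gpr37 and Ednra, are shown with any match to the motifs searched in capitals. Both come from RefSeq on GRCm38.p6 and read 5′ to 3′ on the strand of the gene, the minus strand. They lie at chr6:25689981-25690230 for Gpr37 and chr8:77724453-77724702 for Ednra.
Gpr37: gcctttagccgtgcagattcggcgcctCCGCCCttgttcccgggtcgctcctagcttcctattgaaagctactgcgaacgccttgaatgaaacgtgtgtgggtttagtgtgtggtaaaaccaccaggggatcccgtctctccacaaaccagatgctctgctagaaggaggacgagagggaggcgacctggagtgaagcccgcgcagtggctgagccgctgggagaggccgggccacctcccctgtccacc
Ednra: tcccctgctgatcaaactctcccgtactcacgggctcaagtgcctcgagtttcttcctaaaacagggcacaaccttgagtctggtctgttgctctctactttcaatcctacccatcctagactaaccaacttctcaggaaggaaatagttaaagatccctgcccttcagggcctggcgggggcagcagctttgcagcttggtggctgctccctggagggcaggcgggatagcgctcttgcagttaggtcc
These 250 bases held 60.8% G and C with 16 CG pairs at Gpr37, and 54.8% with 6 CG pairs at Ednra, where the median of 32851 promoters was 52.4%. Motifs were searched on both strands. The E-box that Mitf, the melanocyte regulator, binds was searched as CACGTG, which 6.02% of all promoters hold in a stretch of this length, and in its other form CATGTG, which 12.3% hold. The TATA box was searched as TATAAA, found in 12.4%, and the AP-1 motif as TGANTCA, found in 6.75%. The GC box of Sp1 was searched as GGGCGG, found in 32.7%. The Gpr37 stretch held 1 match, to the GC box on the opposite strand, and the Ednra stretch held none of these motifs.

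Gpr37 had a normalized signal of 0.52 in the parental line, and the signal reached 2.92 in B16-RI, 4.64 in B16-R2, then 20.13 in the lung line. The raw signals behind them, in that order, were 193, 1074, 2727 and 9889. The signal was thus higher on each array in the order listed, and of the steps between arrays that both detected it, the last was the larger. On B16 the S/N was -1.35, which is background, whereas the passaged arrays had 6.69, 6.24 and, for B16-R2L, 34.9. Since B16 gives only a bound, Gpr37 was at least 5.62-fold higher than B16 in B16-RI and at least 8.92-fold higher in B16-R2. In such bulk cultures, a larger share of cells with the transcript and more of it per cell cannot be told apart. The bound for B16-R2L, the comparison by which the gene was chosen, was 38.7-fold. The bound was taken against the higher of the dim probe's own signal and the lowest signal of a detected probe on that array. Here and below, "at least" refers to this reference alone. A transcript level up to the detection limit of the dimmer array could give a smaller ratio. Against the median signal of probes with an S/N between 2.5 and 3.5 on B16, 1.41, a reference chosen after the values were seen, the ratios were 2.07, 3.29 and 14.3.

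**Figure D1:**
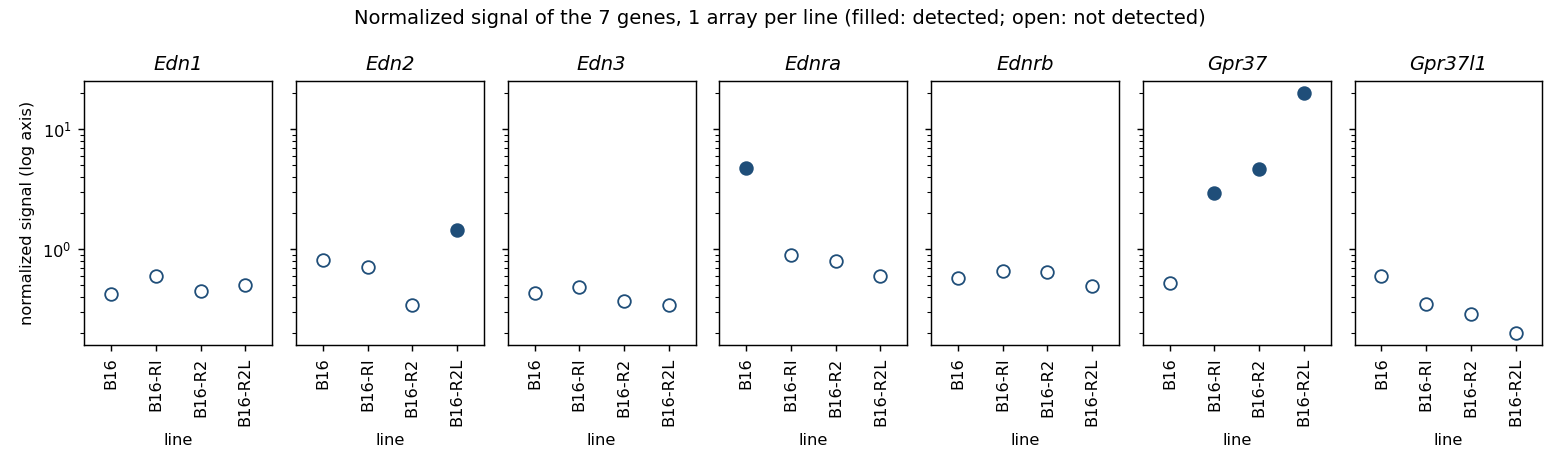
Normalized signal (log axis) of the 7 genes in the parental and the passaged lines, 1 point per array, filled where the probe was detected and open where it was not. Gpr37 goes from 0.52 on B16 to 20.13 on B16-R2L, Ednra from 4.81 on B16 to 0.60 on B16-R2L, and Ednrb, Edn1, Edn3 and Gpr37l1 have open points only.

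Between the passaged lines Gpr37 was detected on both sides, so these ratios are measured values and not bounds. B16-R2 was 1.59-fold B16-RI, and under the other scalings of the arrays this difference was between 0.63 and 0.89 log2 units. Among 12519 probes detected on both arrays it ranked 1313, with a median of all at 0.18 log2 units. B16-R2L was 4.34-fold B16-R2, or 2.12 log2 units, and this step ranked 5 among 13018 probes detected on both arrays, whose median was -0.16. B16-R2L was 6.89-fold B16-RI, which ranked 4 of 12431. These ranks describe the arrays with a gene that was chosen for its signal on B16-R2L, and carry no test. The lung line and the lymph node line of the same injection round differed more in Gpr37 signal than the lymph node lines of rounds 1 and 2 did.

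**Figure D2:**
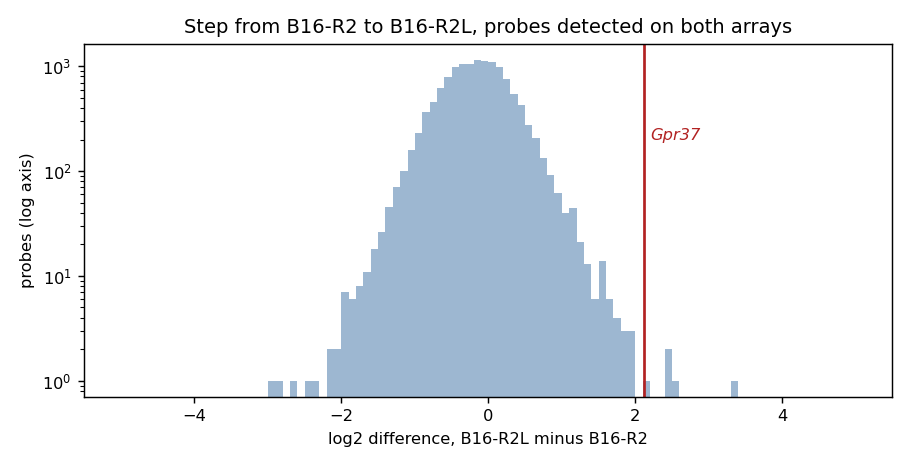
Histogram of the log2 difference between B16-R2L and B16-R2 (deposited normalized values) over the 13018 probes detected on both arrays, with the number of probes on a log axis. The line marks Gpr37 at 2.12 log2 units, rank 5 from the top.

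Ednra, the receptor that prefers Edn1 and Edn2, had a normalized signal of 4.81 in the parental line, against 0.89 in B16-RI, 0.80 in B16-R2, then 0.60 in the lung line. The B16 signal stood apart from the other arrays, whose values were all at background. The S/N of 9.73 on B16 stood against -0.20, 1.65 and 0.90 on the passaged arrays. B16 was at least 5.40-fold higher than B16-RI, at least 6.01-fold higher than B16-R2 and at least 8.02-fold higher than B16-R2L. Against the median signal of probes near the detection limit of the passaged arrays the ratios were 3.04, 3.62 and 3.85. Of the 1096 probes detected on B16 alone, whose median S/N on B16 was 4.09, Ednra ranked 37 by that S/N. The signals of the passaged lines, at background, have no order among themselves.

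**Figure D3:**
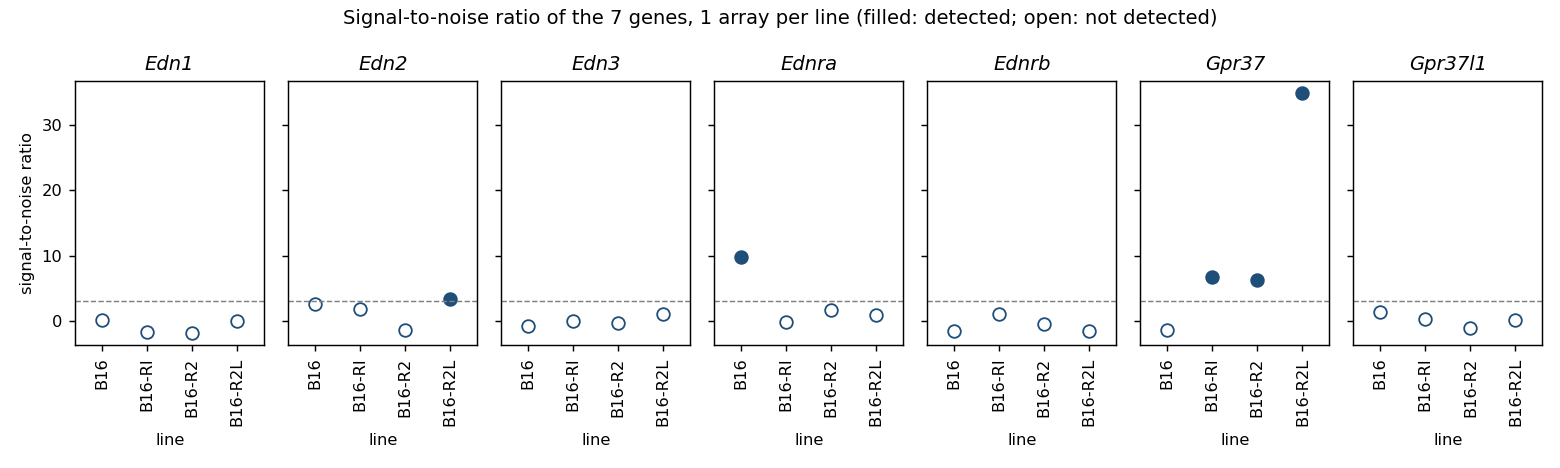
Signal-to-noise ratio of the 7 genes on each array, filled where detected, with the detection limit of 3 as a dashed line. Gpr37 reaches 34.9 on B16-R2L, Ednra is at 9.73 on B16 and below the line on the passaged arrays, and Edn2 is just above the line, at 3.35, on B16-R2L.

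By the 2-fold rule with detection on the brighter array, Gpr37 was the 1 gene of the 7 above B16 in each passaged line, and Ednra the 1 gene below it in each. Among all probes, 4.95% were above B16 and 4.55% below it in B16-RI. In B16-R2 they were 6.51% and 3.79%, and in B16-R2L 6.42% and 4.25%. On all 3 passaged arrays 1.14% of probes were above B16 and 1.8% below it. Gpr37 was also higher, and Ednra lower, at each step from B16 to B16-R2L, with at least 2-fold between the ends and detection at the brighter end, as were 2% and 0.921% of probes, although the Ednra signals after B16 were background. As the genes were chosen with the comparison of B16-R2L with B16 known, nothing is read from 1 of 7 beside these shares. Under the deposited values and 4 other scalings, the difference of Gpr37 from B16 was between 2.09 and 2.52 log2 units in B16-RI, between 2.73 and 3.31 in B16-R2 and between 4.76 and 5.33 in B16-R2L. That of Ednra was between -2.84 and -2.43, between -3.01 and -2.44 and between -3.53 and -2.96. Both kept their direction under each scaling.

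**Figure D4:**
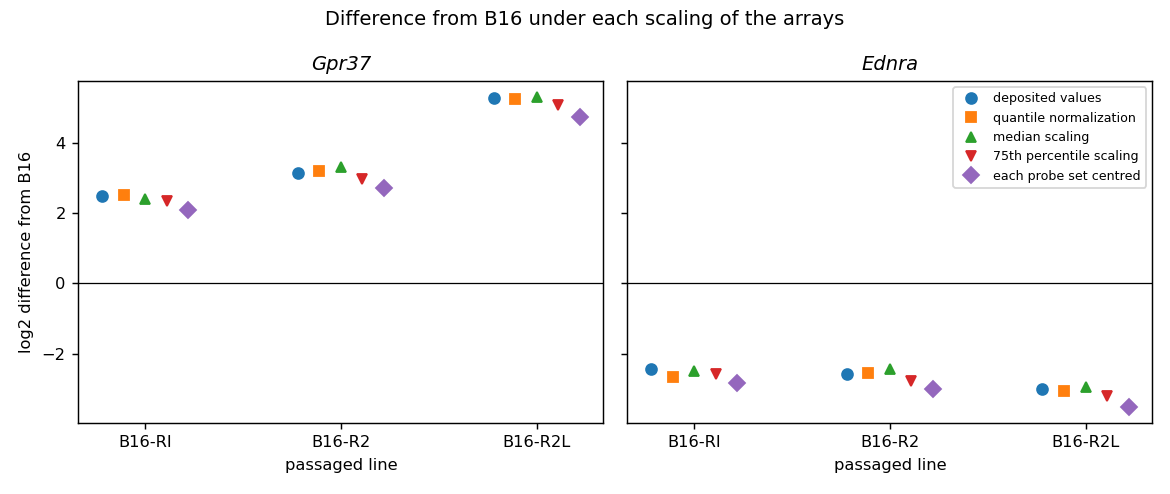
Log2 difference of Gpr37 and Ednra from B16 in each passaged line (x axis), with 1 symbol for the deposited values and for each of 4 other scalings of the arrays. All symbols of Gpr37 lie above 0, up to 5.33 in B16-R2L, and all of Ednra lie below 0, down to -3.53 in B16-R2L.

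The other endothelin receptor, Ednrb, is the receptor of the melanocyte lineage. Its normalized signal was 0.58 in the parental line and 0.66, 0.64 and 0.49 in the passaged lines in the order of the rounds, lung last, and its highest S/N was 1.02, on B16-RI. Ednrb transcript was therefore not detectable with this probe in any of the 4 lines, although other melanocyte genes were. The position of the probe in the transcript is not given in the sources used here, so a probe that hybridizes poorly and a low transcript level cannot be told apart.

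Among the ligands, Edn2 was the 1 gene with a detected signal. Its normalized signal was 0.82 in the parental line, 0.71 in B16-RI and 0.34 in B16-R2, and was highest in the lung line at 1.45. In the same order the S/N was 2.56, 1.88, -1.41 and 3.35, so that the B16 array fell just short of the limit that the B16-R2L array just passed. B16-R2L was at least 1.77-fold higher than B16, under the 2-fold limit, at least 2.04-fold higher than B16-RI and at least 3.92-fold higher than B16-R2. Against the median signal of probes near the detection limit, however, the ratios were 1.03 for B16 and 1.09 for B16-R2, and on B16-RI that reference, 1.58, was above the Edn2 signal of B16-R2L, so neither 2-fold difference held. Of the 1190 probes detected on B16-R2L alone, Edn2 ranked 913 by S/N. Between the passaged lines, Edn2 and Gpr37 were the 2 genes of the 7 at least 2-fold higher in B16-R2L than in B16-RI (5.43% of all probes) and than in B16-R2 (3.85%), and 0 genes were lower (4.07% and 4.73%). Between B16-R2 and B16-RI 0 genes were higher (4.93%) or lower (3.27%).

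Edn1, the ligand first known from endothelium, was not detected, with normalized signals of 0.42, 0.60, 0.45 and 0.50 in the order of the lines above. Edn3, the ligand of the melanocyte lineage, had signals of 0.43, 0.48, 0.37 and 0.34 in the same order. Gpr37l1 had signals of 0.60, 0.35, 0.29 and 0.20. The highest S/N of Edn1 was 0.10, that of Edn3 1.06 and that of Gpr37l1 1.46. Although the Gpr37l1 values are lower on each successive array, all are background signals and no change is read from them.

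The genes around the endothelin receptors were looked at in a list of 51 genes, of which 45 had a probe and 34 were detected on at least 1 array. For a gene with several probes, the brightest was used. In B16-RI 0 genes of the list were above B16 and 2 below it, in B16-R2 4 were above and 3 below, and in B16-R2L 3 were above and 2 below. The shares of all probes called were 4.95% above and 4.55% below in B16-RI, 6.51% and 3.79% in B16-R2, and 6.42% and 4.25% in B16-R2L, and nothing particular to the list is read from its counts. Of the calls in the list 10 rest on a bound, and 4 of them, those of Ece1 and Grpr, remained at least 2-fold against the median signal of probes near the detection limit of the dimmer array (the near-limit signal). The median difference of the 45 genes from B16 was 0.12, 0.24 and 0.15 log2 units, where that of all probes was 0.17, 0.21 and 0.07.

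Of the enzymes that process endothelins, Ece1, which cuts the inactive precursor to the active peptide, was detected on B16-R2L alone. Its normalized signal was 0.62 in the parental line, 1.49 in B16-RI, 0.96 in B16-R2, then 3.94 in the lung line, and B16-R2L was at least 6.35-fold higher than B16, or 2.79-fold against the near-limit signal. It was above B16 in B16-R2L under each of the 5 scalings, with a difference between 2.16 and 2.73 log2 units, but its S/N there was 4.89, so that the call was lost at an S/N limit of 5. Furin, a protease that makes the first cut of many precursors, was detected on all arrays with signals of 23.2, 17.4, 18.6 and 29.0, and Pcsk7 of the same family with 8.37, 8.32, 11.7 and 12.2. Neither reached a 2-fold difference from B16. Kel, which can process Edn3, Mme, a peptidase that degrades endothelins, and its relative Mmel1 were not detected on any array.

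Among the peptide receptors nearest to this family, Grpr, the receptor of gastrin-releasing peptide, had the same pattern as Ednra. Its normalized signal was 4.02 in the parental line and 0.60, 0.48 and 0.57 in the passaged lines, with detection on B16 alone. The parental signal exceeded those of the passaged lines by at least 6.70-, 8.38- and 7.05-fold, or 2.54-, 3.02- and 3.22-fold against the near-limit signals, and Grpr was below B16 in each under all 5 scalings. Brs3, an orphan receptor of the bombesin family, was detected on all arrays with signals of 11.7, 7.63, 9.18 and 9.50, less than 2-fold from B16. In B16-RI it stayed under 2-fold with 4 of the 5 scalings, and the lowest difference was -1.01 log2 units. Nmbr, the neuromedin B receptor, was not detected.

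Of the G proteins and their effectors, 17 of 19 listed genes had a probe and 14 were detected. Gna11, which couples endothelin receptors to phospholipase C, was detected on all arrays and was called in no line. Gnaq, of the same class, was detected on B16-R2 alone, at 2.40 against 1.15 on B16, which is 1.702-fold the near-limit signal. Plcb4, a phospholipase C, was at 1.46 in the parental line and 2.43, 3.21 and 3.16 in the passaged lines, 2.20-fold B16 in B16-R2 and 2.16-fold in the lung line. The calls of Gnaq and Plcb4 held under 3 of 5 scalings. Prkcb, a protein kinase C, was detected on B16 alone, at 2.33, and had signals of 1.13, 0.64 and 0.40 on the passaged arrays. The parental signal was higher by at least 2.06-, 3.64- and 5.83-fold, a call that held under all 5 scalings in each line. The S/N on B16 was 3.33, however, and against the near-limit signals the ratios were 1.47, 1.75 and 1.86, under 2-fold. The dimmer probe of the gene was not detected on any array.

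Among regulators that switch off receptors, Grk3, a receptor kinase listed as Adrbk2, was detected on B16 alone at 0.79, and B16 was at least 2.14-fold higher than B16-R2. Its S/N on B16 was 6.38, but its signal there was below the near-limit signal of B16-R2, 1.33, against which no fold is given. The relative Grk2, listed as Adrbk1, was detected on all arrays and called in no line.

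Of the melanocyte regulators, Kit, the receptor of stem cell factor, was at 5.16 in the parental line, 4.80 in B16-RI, 9.18 in B16-R2, then 19.27 in the lung line. It was 3.73-fold B16 in B16-R2L and remained above it under all 5 scalings, with a difference between 1.38 and 1.95 log2 units. Like Gpr37, it was highest on B16-R2L, but it was detected on all 4 arrays. Mitf was at 6.37, 5.20, 6.45 and 5.96. Pax3 was 1.97-fold and Zeb2 1.84-fold B16 in B16-R2L, under the 2-fold limit, which Pax3 passed under 1 of the 5 scalings, at 1.03 log2 units. Sox10 has no value here.

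Psap, whose product prosaposin has been proposed as a ligand of Gpr37 and Gpr37l1, was detected on all arrays with signals of 80.3, 104, 134 and 137, and differed less than 2-fold from B16. Its relative Psapl1, listed as 2310020A21Rik, was at 1.72, 2.43, 1.82 and 1.53. Park2, the gene of parkin, was detected on B16-R2 alone, at 2.03, and was at least 2.71-fold higher there than on B16, or 1.44-fold against the near-limit signal. Mpdz, a scaffold protein with PDZ domains, was 2.14-fold B16 in B16-R2, a call that held with the deposited values alone. Stub1, a ubiquitin ligase that acts with parkin, and Sdcbp, the scaffold protein syntenin, were detected on all arrays and called in no line.

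**Figure D5:**
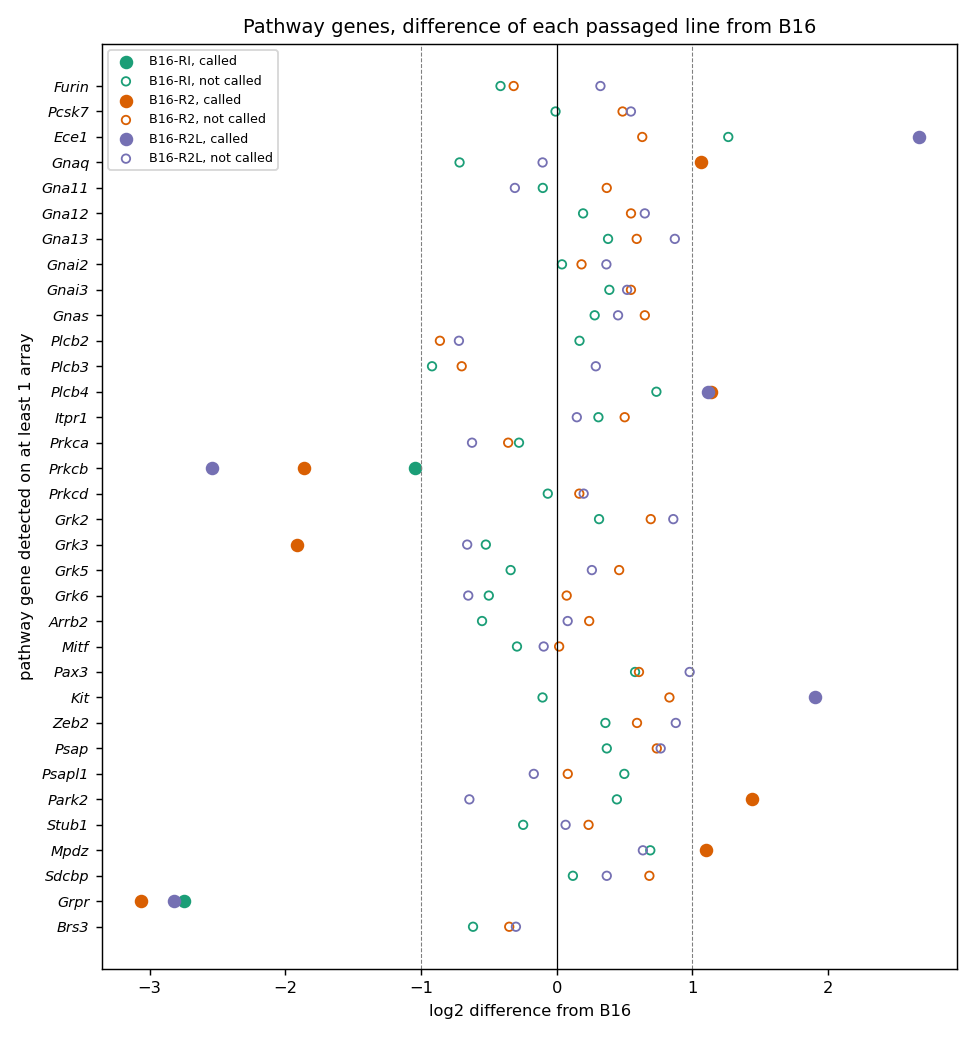
Log2 difference from B16 (x axis) of the 34 listed pathway genes detected on at least 1 array, in B16-RI, B16-R2 and B16-R2L, with large filled points for differences of at least 2-fold detected on the brighter array and small open points for the rest. Dashed lines mark 2-fold, and Ece1 and Kit lie to the right, and Grpr and Prkcb to the left, on B16-R2L.

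Genes with the pattern most like that of Gpr37 were looked for among 262 other probes with a gene symbol that were detected on the 3 passaged arrays and not on B16. The measure was the root mean square difference of log2 signal over those 3 arrays, after the mean of each probe was taken off. The nearest were V1ra6 (now Vmn1r42), a vomeronasal receptor, at 0.30 log2 units, E330017E16 (Fbxw13) at 0.43, Npr2, the receptor of C-type natriuretic peptide, at 0.49, BC035954 at 0.52 and 5330410G16Rik (Tmem59l) at 0.53. B16 was no part of the measure, and the nearest gene, V1ra6, had normalized signals of 1.57, 1.21, 1.46 and 4.98 in the order of the lines above, so that its undetected signal on B16 exceeded those of B16-RI and B16-R2. Npr2 had 1.73, 3.07, 4.79 and 10.13, higher on each array as Gpr37 was. The signals of E330017E16, BC035954 and 5330410G16Rik were also higher on each array. Ednrb was not detected on any array, so no gene was matched to it.

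The nearest genes on the chromosome that were detected on every array, 5 on each side, were compared with both receptors by RefSeq gene order. Gpr37 lies on chromosome 6. With the deposited values its 10 neighbours differed from B16 by a median of 0.44 log2 units in B16-RI and 0.43 in B16-R2. In each of these lines 9 of 10 were above B16. In B16-R2L the median was 0.10, with a range from -0.39 for Tspan12 to 0.66 for Ing3. Over all probes detected on every array, the medians were 0.21, 0.41 and 0.22. With other scalings the median of the neighbours in B16-RI was between 0.07 and 0.37, with 7 or 8 of 10 above B16. In B16-R2 it was between 0.01 and 0.47, with 5 to 9 of 10 above, and in B16-R2L between -0.19 and 0.13. Ednra lies on chromosome 8, and its 10 neighbours were above B16 in B16-R2L, with a median of 0.74 log2 units and a range from 0.39 to 1.22. Their median was 0.48 in B16-RI and 0.58 in B16-R2 with the deposited values. Under the other scalings it was between 0.21 and 0.42 in B16-RI and between 0.16 and 0.70 in B16-R2. At least 8 of the 10 were above B16 in each of these. In B16-R2L the median was between 0.41 and 0.77 under the scalings, and 9 or 10 of the 10 were above B16. As detection on every array was required, a neighbour that had dropped to background could not enter, and the neighbours lay up to 23 genes from Gpr37 and up to 19 from Ednra.

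Markers of other cells that use these genes were counted on the same arrays. Of 6 measured markers of astrocytes and oligodendrocytes, Mbp was detected on all arrays, at 41.9 in the parental line and 99.1, 129 and 104 in the passaged lines. Gfap was detected on B16-R2 at 9.25 and on B16-R2L at 3.93, Mog was detected weakly on the 3 passaged arrays, and Aqp4 and Mag were not detected. The summed signal of the list was 59.3 on B16 and between 105 and 142 on the passaged arrays, and nearly all of it on the passaged arrays was Mbp. By the 2-fold rule Mbp was above B16 in each passaged line, Gfap was at least 8.04-fold above it in B16-R2 and at least 3.42-fold in B16-R2L, and 0 of the 6 markers were below. Slc1a3 was not detected by the rule, although its signal was 13.1 on B16 and at most 1.93 on the passaged arrays. On B16 its error flag was above the limit, and on the passaged arrays its S/N was under 3. Of 8 endothelial markers 1 was detected with its brightest probe, Pecam1, on B16-R2 and B16-R2L, while Cdh5, Kdr, Tek and Tie1 were not. The 2-fold rule called Pecam1 higher than B16 in B16-R2, with a bound of 4.69-fold, and not in B16-R2L. Of 4 measured smooth muscle markers Cnn1 was detected on B16 alone, at 1.02. Its signal was higher, 1.21, on B16-R2L, at an S/N of 2.72. Des was at 1.15, 1.82, 6.92 and 6.08 with detection on the passaged arrays. The 2-fold rule called Des higher than B16 in B16-R2 and B16-R2L, with bounds of 6.02- and 5.29-fold. Myh11 and Tagln were not detected. Csf1r was the 1 macrophage marker of 5 detected with its brighter probe, on B16, whereas its dimmer probe was detected on B16-R2 alone, at least 2.26-fold above B16. Of 6 fibroblast markers 3 were detected, and the summed signal of the list was 13.5 in the parental line and 21.8, 14.0 and 22.8 in the passaged lines. Col1a2, a collagen chain, was at 6.32, 14.96, 7.40 and 16.66, which was 2.37-fold B16 in B16-RI and 2.64-fold in the lung line, whereas Col1a1 was at least 2.57-fold lower in B16-RI than in B16. The part of other cells in the signals of Gpr37 and Ednra was not tested.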

How the data were processed

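RNA of 4 lines was measured on 1 array each. The raw intensity deposited by the authors is the chemiluminescence signal of the analyzer. The authors also deposited a normalized intensity, which here equals the raw signal divided by 1 of 2 constants per array, for 16524 and 16488 probes, and not quantile normalized as the study's methods state. The deposited S/N and flag are scores of the analyzer, used with the limits of the study's methods. The table also has second arrays (20 columns of values and 10 of ratios), left out since no sample of the labels matches them. The other 14 columns, the authors' log2 values and ratios of the arrays analysed, were not used either.

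Normalized signals were compared on the log2 scale with no pseudocount. A probe was called at a difference of at least 1 log2 unit with detection on the brighter array. No test was run, as only the 1 array per line that matches a labelled sample was used, which limits the precision of every value. The genes, lists and rules were chosen with earlier results of these data known. Named were all 7 genes, listed pathway genes that were called, every gene of 3 short groups, and the 5 genes most like Gpr37. Other genes of the lists are examples chosen after their values were seen. The alternatives were 4 scalings, 3 detection filters and 2 size limits, plus a reference at the detection limit added after the values were seen. Symbols were updated with RefSeq (GRCm38.p6), which matched 16185 of 17302 probes with a symbol. The file names no genome build. Python 3.11.15, numpy 2.4.6, pandas 2.3.3 and matplotlib 3.10.9 were used.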

Additional observations from a re-analysis of the deposited data

How the results depend on the processing

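Gpr37 stayed above B16 and Ednra below it under every scaling run. Requiring detection on both arrays left 0 of the 7 genes above and 0 below B16 in each line, because neither gene was detected on both sides. It also left 2 pathway genes above B16 in B16-R2 (2.56% of all probes) and 2 in B16-R2L (2.23%), and 0 below it in any line (0.424% to 0.688%). Without a filter 3 of the 7 genes were below B16 in B16-R2 and 2 in the lung line (8.67% and 10.2% of all probes), the additions being Gpr37l1 and Edn2 at background, and 5 pathway genes were above B16 in B16-RI and 5 in the lung line (11.05% and 10.4% of all probes). At 1.5-fold Edn2 joined Gpr37 above B16 in B16-R2L, which made 2, and the pathway genes above B16 numbered 2, 12 and 10 in B16-RI, B16-R2 and B16-R2L, with 5 below in B16-R2L. The shares of all probes at 1.5-fold were 10.7%, 16.8% and 13.9% above, and 7.03% below in B16-R2L. At 4-fold 0 pathway genes were above B16 in B16-R2 (1.44% of all probes) and 1 in the lung line (1.55%). Pathway genes below B16 at 4-fold were 1 in B16-RI (1.15%), 1 in B16-R2 (1.17%), then 2 in the lung line (1.30%). Gpr37 and Ednra kept their calls at 4-fold in each line. With an S/N of at least 5, Edn2 was lost from the detected genes, leaving 2, and 1 pathway gene was below B16 in B16-RI and 1 in the lung line (2.18% and 1.88% of all probes). Scaling to the 75th percentile left 1 pathway gene above B16 in B16-R2 (3.78% of all probes), and centring each probe set left 1 (3.30%). The cause was not tested beyond what the filters and limits remove by construction. No paired analysis was possible because only 1 array per line matched a labelled sample. The second arrays in the table were not used, so no replicate was left out in turn. Signal over background limits all ratios to B16 or to passaged arrays on which a probe was not detected.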

Other observations

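Genes listed under a Gpr symbol, then or now, numbered 87 with a probe, Gpr37 among them. The group was chosen by symbol alone, after the values were seen. Of these 36 were detected on at least 1 array, and 5 had the detection pattern of Gpr37. Of all probes 43.4% were not detected on any array, 1.4% had that pattern and 1.14% were above B16 on all 3 passaged arrays, and nothing particular to the group is read from its counts. The 3 genes above B16 in all passaged lines were Gpr37, Lgr5 (listed as Gpr49), a receptor of R-spondins, and Gpr89, listed as 4933412D19Rik. Lgr5 had normalized signals of 0.93 in the parental line and 5.51, 10.3 and 7.68 in the passaged lines, lung last, and its S/N on B16 was 2.99, at the detection limit. Gpr89 was at 1.87, 8.12, 8.88 and 7.16. Neither was highest on B16-R2L, where Gpr37 was. Gpr85 was detected on B16-R2L alone, at 3.47, against 0.27, 0.52 and 0.75 in the other lines. Gpr143, a receptor of melanosomes, was detected on all arrays at 10.1, 15.8, 15.1 and 14.0, less than 2-fold from B16.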
